A study of Mus musculus with 6 samples.

Results

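The genes described here are *Gpa33*, *Calcoco2* and *Stk30*, which are 3 of the 21639 gene entries of an RNA-Seq table. They were chosen by their RPKM values (read numbers scaled to transcript length and to sequencing depth), as genes with some of the largest decreases in the H2A.Z acidic patch mutant line (AP3) against the wild-type line at both time points. The table holds mouse embryonic stem cells (ESCs, D0) and embryoid bodies (EBs) formed over 3 days without LIF (D3), in 3 lines with 1 library for each of the 6 conditions. The labels give the strain as V6.5 (129SvJaexC57BL/6), and the methods place the transgenes in KH2 ESCs. H2A.Z WT cells express YFP-tagged wild-type H2A.Z, and H2A.Z AP3 cells express YFP-tagged H2A.Z with G92N, D97N and S98K, each replacing a residue with the one in H2A. Both transgenes are induced with doxycycline from a CMV promoter through rtTA, the cells were sorted for YFP, and both lines also carry a hairpin against the 3′ UTR of the endogenous H2A.Z gene. The remaining line is labelled H2A.Z KD, a name the paper gives to ESCs in which such a hairpin depletes endogenous H2A.Z. The lines are called WT, KD and AP3 below, where KD stands for the label only. ESCs were kept on irradiated fibroblasts and passaged without them for the last passage before RNA was taken.

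H2A.Z is a variant of histone H2A found at promoters and enhancers, and its acidic patch is a negatively charged surface of the nucleosome that other proteins bind. *Gpa33* encodes the A33 antigen, a cell surface glycoprotein of the CTX branch of the immunoglobulin superfamily that is known from the intestinal epithelium. *Calcoco2* encodes NDP52, an autophagy receptor that ties ubiquitin-coated or galectin-marked cargo to the LC3 and GABARAP proteins of the growing autophagosome. *Stk30*, now named *Mok*, encodes a serine/threonine kinase related to the MAP kinases and closest to MAK and ICK, which act on cilia.

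The genes lie on different chromosomes of mm9. *Gpa33* spans chr1:168060591-168096641 on the plus strand, with 4 annotated transcripts, the longest of 2515 bases in 7 exons. *Calcoco2* spans chr11:95960640-95973276 on the minus strand, with 2 transcripts, the longest of 1621 bases in 6 exons. *Stk30* spans chr12:112046008-112079149 on the minus strand, with 4 transcripts, the longest of 1693 bases in 12 exons. Promoter sequence from RefSeq (GRCm38.p6, from 250 bases before to 50 bases after the transcription start) was matched for *Gpa33* and, under the name *Mok*, for *Stk30*, and short stretches of these windows are shown for the motifs and CpG dinucleotides counted below. The first is the stretch of *Gpa33* with a CACCC motif in capitals (chr1:166130140-166130169, plus strand), the next is its stretch with a CCAAT motif in capitals (chr1:166130007-166130036, plus strand), and the last lines are, for each gene, the 30 bases of its window with the most CpG dinucleotides, in capitals (chr1:166129985-166130014, plus strand, and chr12:110841048-110841077, minus strand).
Gpa33 CACCC: aagtgtgggcaaCACCCtgcttttactagc
Gpa33 CCAAT: ccaagccgggtaCCAATtctgaacacagga
Gpa33 CpG: ttcttgtgtatctgctactttcccaagcCG
Stk30 CpG: gCGgCGagaggttgCGtagCGacCGaacCG

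The *Stk30* window holds 25 CpG dinucleotides, 6 of them in the stretch shown, and 18.4% of 32851 RefSeq promoter windows of the same length hold at least as many. The *Gpa33* window holds 4, with 1 in the stretch shown, against a median of 7 over all windows. Both strands were searched for 7 motifs, which were GGGCGG (known as the GC box), CACCC (bound by factors such as the KLF family), CCAAT (bound by NF-Y), TATAAA (the form of the TATA box), AAGGTCA (a motif bound by ESRRB), the octamer motif ATGCAAAT of POU factors and the E-box form CACGTG. *Gpa33* had 1 CACCC, 69 bases before the start, and 1 CCAAT, 202 bases before it, and none of the other motifs. The *Stk30* window held none of the 7. A CACCC occurs in 57.5% and a CCAAT in 37.4% of all windows, so both are frequent, and a match describes the letters only.

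The gene targeted by the hairpin, *H2afz*, was at 279 RPKM in WT, 343 RPKM in the library labelled KD and 304 RPKM in AP3 ESCs, against 258, 236 and 394 RPKM in EBs. It was not lower in the library labelled KD at D0, and at D3 its log2 ratio to WT was -0.13. The AP3 library was 0.61 higher than WT on the log2 scale at D3. Reads of a transgene and of the endogenous gene are not separated in these values, and the WT line carries the hairpin too. These values therefore do not measure how far the hairpin lowered the endogenous gene. The paper reports depletion of the endogenous transcript by the hairpin, measured by qRT-PCR. Depth was estimated at 18.5 M to 28.7 M reads per library from the step between low RPKM values, and 16822 to 17170 entries were above 0. The values of *Gpa33*, *Calcoco2* and *Stk30* then rest on about 108 to 685 reads each by the longest transcript. By the median transcript length there were fewer, for *Gpa33* 1328 in place of 2218 over 6 libraries. The 95% intervals given below are exact intervals of the read numbers by the longest transcript, and they cover counting error only. With 1 library per condition there is no replicate check on any difference, and no test was made.

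*Gpa33* was at 8.42 RPKM in WT, 5.62 RPKM in the library labelled KD and 2.85 RPKM in AP3 ESCs. In EBs it was at 13.2 RPKM in WT, 5.62 RPKM in the library labelled KD and 4.85 RPKM in AP3. The WT library was the highest at each day, and its EB value was the highest of all 6. The AP3 level was 33.8% of WT at D0 and 36.7% at D3.

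*Calcoco2* was at 13.7 RPKM in WT, 10.7 RPKM in the library labelled KD and 6.56 RPKM in AP3 ESCs. In EBs the values were 10.9 RPKM in WT, 4.79 RPKM in the library labelled KD and 3.63 RPKM in AP3. Levels in EBs were below those in ESCs in each line, with the smallest step in WT. The AP3 level was 47.8% of WT at D0 and 33.3% at D3.

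*Stk30* was at 10.0 RPKM in WT, 7.57 RPKM in the library labelled KD and 4.41 RPKM in AP3 ESCs. In EBs it was at 7.66 RPKM in WT, 5.34 RPKM in the library labelled KD and 2.95 RPKM in AP3. The 3 lines kept much the same spacing at each day. The AP3 level was 44.1% of WT at D0 and 38.4% at D3.

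**Figure D1:**
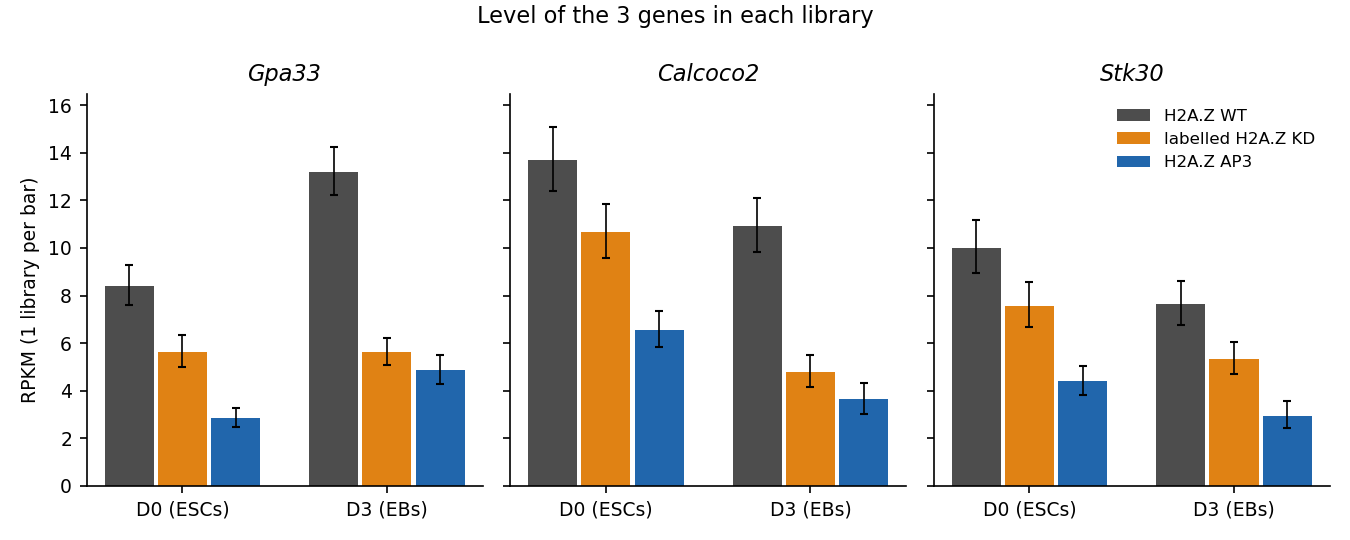
RPKM (vertical axis, linear, from 0) of *Gpa33*, *Calcoco2* and *Stk30* in the 6 libraries, with D0 and D3 on the horizontal axis; each bar is 1 library and each error bar is the exact 95% interval of its estimated reads. In each gene and at each day the bars step down from WT through the library labelled KD to AP3, which spans 2.85 to 6.56 RPKM at D0.

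The genes were of middling abundance. In WT ESCs, 61.7% of the entries above 0 were lower than *Gpa33*, 71.8% were lower than *Calcoco2* and 65.3% were lower than *Stk30*. In AP3 ESCs the shares were 42.6%, 56.4% and 49.2%. Because these are bulk samples, fewer cells that express a gene and less of its RNA in each cell cannot be told apart.

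The decrease in AP3 against WT is what selected the genes, so its size is a description. On the log2 scale, *Gpa33* was -1.56 at D0 (95% interval, -1.81 to -1.31) and -1.45 at D3 (-1.66 to -1.24). *Calcoco2* was -1.06 at D0 (-1.28 to -0.85) and -1.59 at D3 (-1.89 to -1.29). *Stk30* was -1.18 at D0 (-1.44 to -0.93) and -1.38 at D3 (-1.72 to -1.05). All are past the 1.5-fold change used as the threshold, which 13.9% of all entries pass downward at D0 and 11.7% at D3. Many of those entries are scarcely expressed. Among the 8256 entries averaging 5 RPKM or more, the shares were 2.73% and 2.35%, and 36 entries passed at both days.

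Ranked by the decreases of both days added together, with a pseudocount of 1 RPKM, *Gpa33* was the lowest of the 36 at -2.57, *Calcoco2* followed in place 3 at -2.32 and *Stk30* in place 4 at -2.16. *Klf2*, a Kruppel-like transcription factor of naive pluripotency that is not a member, lay between them at -2.47. Just outside came *Ooep*, an oocyte-expressed gene, at -2.02 and *Krt18*, a simple epithelial keratin, at -1.98. At D3 alone, *Calcoco2* was in place 3, *Gpa33* in place 6 and *Stk30* in place 10 from the lowest of the 8256 entries. At D0 alone the places were 29, 10 and 23.

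**Figure D2:**
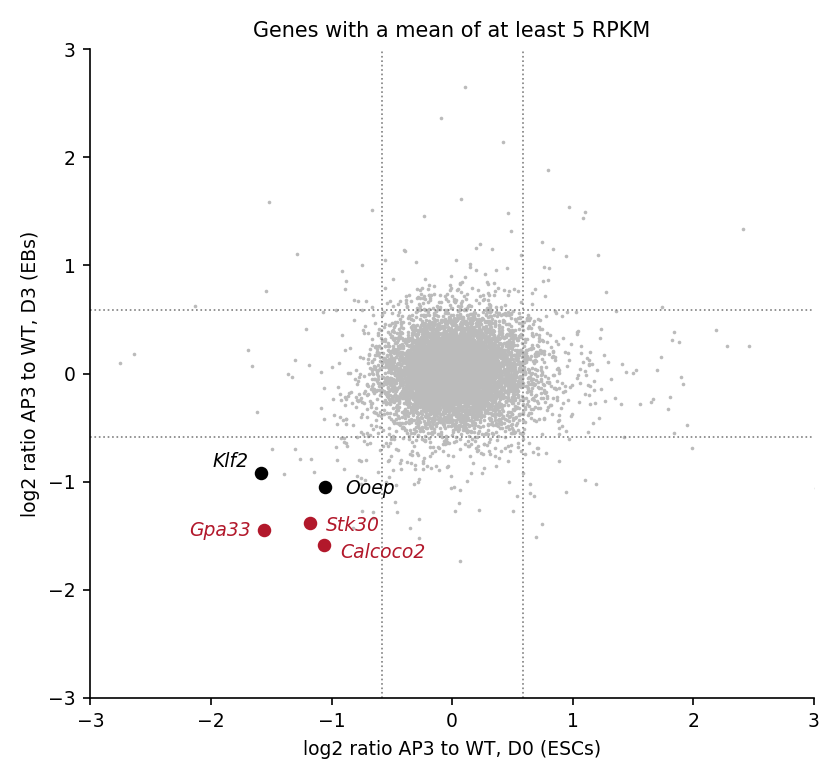
Log2 ratio of AP3 to WT at D0 (horizontal axis) and at D3 (vertical axis) for entries with a mean of at least 5 RPKM, 1 point each; dotted lines mark 1.5-fold and 11 of the 8256 entries lie outside the axes, which end at 3. *Gpa33* (-1.56 and -1.45), *Calcoco2* (-1.06 and -1.59) and *Stk30* (-1.18 and -1.38), in red, lie in the lower left corner, with *Klf2* and *Ooep* in black beside them.

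The ratios of the library labelled KD did not choose the genes, although its RPKM entered the mean over 6 libraries behind the floor of 5 RPKM, and each of its ratios below shares a library with the choice. Against WT at D0, the log2 ratio was -0.58 for *Gpa33* (-0.81 to -0.36), -0.36 for *Calcoco2* (-0.57 to -0.15) and -0.40 for *Stk30* (-0.65 to -0.16). None of the 3 passed 1.5-fold, *Gpa33* missing it at 1.497-fold, where 1.68% of entries of at least 5 RPKM (10.7% of all entries) were called lower. At D3 the ratio was -1.23 for *Gpa33* (-1.42 to -1.05), -1.19 for *Calcoco2* (-1.44 to -0.94) and -0.52 for *Stk30* (-0.77 to -0.26). *Gpa33* and *Calcoco2*, 2 of the 3, passed the threshold, where 1.96% of entries of at least 5 RPKM (11.3% of all) were called lower, and *Stk30* did not. In the order of D3 ratios *Gpa33* was in place 10 and *Calcoco2* in place 12 from the lowest of 8256, and *Stk30* was in place 258. A high value of the WT library alone would lower these ratios and those of AP3 together, so they are not independent of the choice.

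The ratio of AP3 to the library labelled KD leaves the WT library out. At D0 it was -0.98 for *Gpa33* (-1.25 to -0.72), -0.70 for *Calcoco2* (-0.93 to -0.48) and -0.78 for *Stk30* (-1.05 to -0.52). At D3 it was -0.21 for *Gpa33*, with an interval from -0.44 to 0.02 that includes 0, and -0.40 for *Calcoco2* (-0.72 to -0.07), whose interval included 0 when the estimated depth was halved. *Stk30* was at -0.86 (-1.20 to -0.53). The lines were thus ordered WT, KD, AP3 from high to low for each gene at each day, but in EBs the *Gpa33* values of the last pair differed by no more than counting error.

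The position of the library labelled KD between the other lines moved with the day for *Gpa33* and *Calcoco2* and hardly for *Stk30*. Its distance below WT in RPKM was 50.2% of that of AP3 for *Gpa33* at D0 and 90.8% at D3. For *Calcoco2* the share was 42.6% at D0 and 84.1% at D3. For *Stk30* it was 43.6% and 49.3%. Among all entries with a mean of at least 5 RPKM, 2.88% had the order WT, KD, AP3 at both days. Among the 36 entries lower in AP3 at both days, 23 had it (63.9%), so that order is common among genes chosen in this way and not particular to *Gpa33*, *Calcoco2* and *Stk30*.

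**Figure D3:**
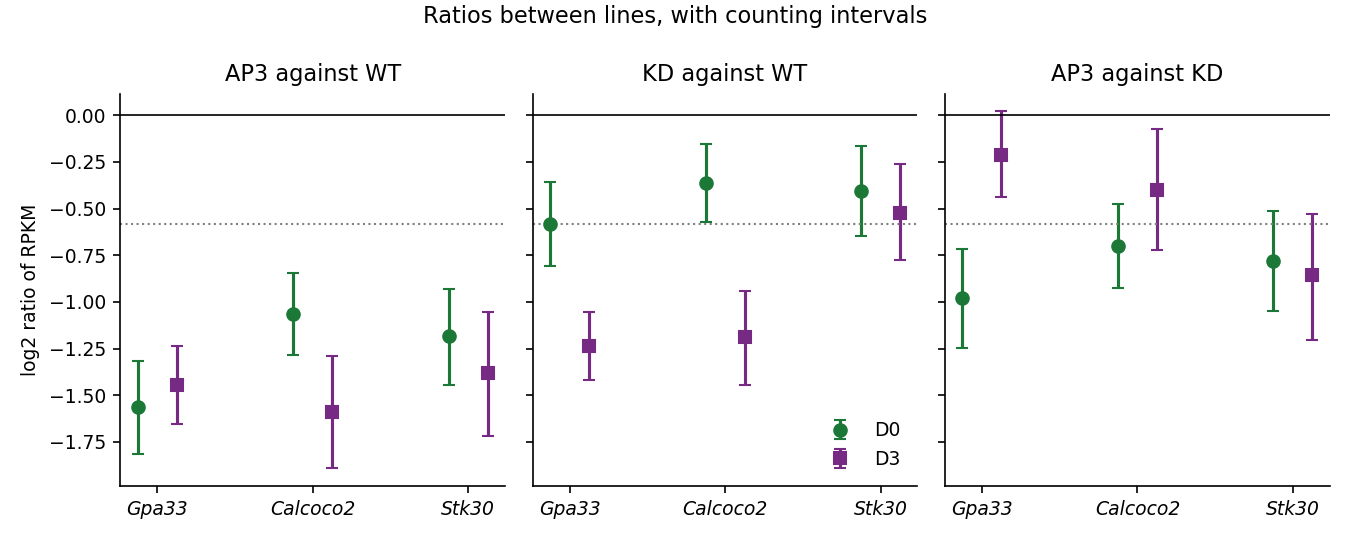
Log2 ratios of RPKM (vertical axis) for the 3 pairs of lines and the 3 genes at D0 (circles) and D3 (squares), with exact 95% counting intervals; the dotted line marks a 1.5-fold decrease. The D3 points of *Gpa33* and *Calcoco2* in KD against WT, at -1.23 and -1.19, lie well below their D0 points, at -0.58 and -0.36, while those of *Stk30* lie close together.

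Between ESCs and EBs the genes differed from each other. *Gpa33* was higher in EBs by 0.65 on the log2 scale in WT (0.47 to 0.83) and by 0.77 in AP3 (0.50 to 1.04), but at the same level in the library labelled KD (-0.0016, with an interval from -0.23 to 0.22). *Calcoco2* was lower in EBs, by a log2 ratio of -0.33 in WT (-0.53 to -0.12), -1.15 in the library labelled KD (-1.41 to -0.90) and -0.85 in AP3 (-1.16 to -0.55). *Stk30* was lower in EBs at -0.39 in WT, -0.50 in the library labelled KD and -0.58 in AP3. For *Gpa33* the interval of KD overlaps neither that of WT nor that of AP3, for *Calcoco2* the interval of WT overlaps neither that of KD nor, narrowly, that of AP3, and for *Stk30* those of all 3 lines overlap. With the estimated depth halved, the *Calcoco2* intervals of WT and AP3 overlapped. Whether the lines differ in their change over time was not tested.

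The nearest annotated gene upstream of *Gpa33* is *Dusp27*, which encodes a muscle protein of the atypical dual specificity phosphatase family. It is transcribed away from *Gpa33* and starts 2340 bases from it. *Dusp27* was at 4.85 RPKM in WT, 3.31 RPKM in the library labelled KD and 0.986 RPKM in AP3 ESCs, against 5.69, 2.61 and 2.27 RPKM in EBs. Its log2 ratio of AP3 to WT was -2.30 at D0 (-2.61 to -1.99) and -1.32 at D3 (-1.57 to -1.08), and that of KD to WT was -0.55 and -1.12. The divergent pair *Gpa33* and *Dusp27* therefore had the same order of lines at both days, with the larger step of KD at D3 in both genes. At D3, however, the KD and AP3 values lay close together in both. For *Gpa33* they differed by no more than counting error, and for *Dusp27* (2.61 and 2.27 RPKM) that interval was not computed. *Dusp27* had a mean under 5 RPKM and was not among the 36.

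Among the 5 nearest entries on each side, 6 reached 1 RPKM in WT or AP3. At D0, *Dusp27* was lower past 1.5-fold and *Tada1* higher (0.68). At D3, *Dusp27*, *Pou2f1* (-0.67) and *Mael* (-1.31) were lower. *Pou2f1*, which encodes the octamer factor OCT1, was at 9.29 RPKM in WT, 9.25 RPKM in the library labelled KD and 6.23 RPKM in AP3 ESCs, a ratio of -0.58 just short of the threshold, while *Mael* was at 0.54 at D0. With this floor, 6.07% of all entries were called lower and 7.79% higher at D0, and 5.98% were called lower and 4.2% higher at D3. For KD against WT the shares were 4.65% lower and 3.37% higher at D0, and 4.88% lower and 3.71% higher at D3. The gene lists below use the same floor, and with lists this short a count of 1 or 2 is not set apart from these shares.

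Of the genes around *Calcoco2*, *Atp5g1*, *Ube2z*, *Snf8* and *Igf2bp1*, on the side of its 3′ end, ranged from 24.8 to 121 RPKM, and their log2 ratios of AP3 to WT from -0.08 to 0.18 at D0 and from 0.02 to 0.52 at D3. *Ttll6*, which is transcribed away from *Calcoco2* and starts 21822 bases from it, was at -0.02 at D0 and was lower past 1.5-fold at D3, at -0.95 (-1.35 to -0.56), with levels of 1.11 to 2.15 RPKM. Of the neighbours with at least 1 RPKM at D0, *Mir196a-1* was lower (-1.36) and *Hoxb8* higher (1.02), both at low levels.

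None of the 8 neighbours of *Stk30* with at least 1 RPKM passed 1.5-fold at either day, and their ratios lay between -0.36 and 0.21 at D0 and between -0.39 and 0.20 at D3. The closest are *Wdr20a*, at -0.16 and -0.02, and *Zfp839*, at 0.21 and -0.31. The lincRNA gene *4921507G05Rik* is annotated to start 90 bases from *Stk30* on the other strand, and it was not analysed here.

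**Figure D4:**
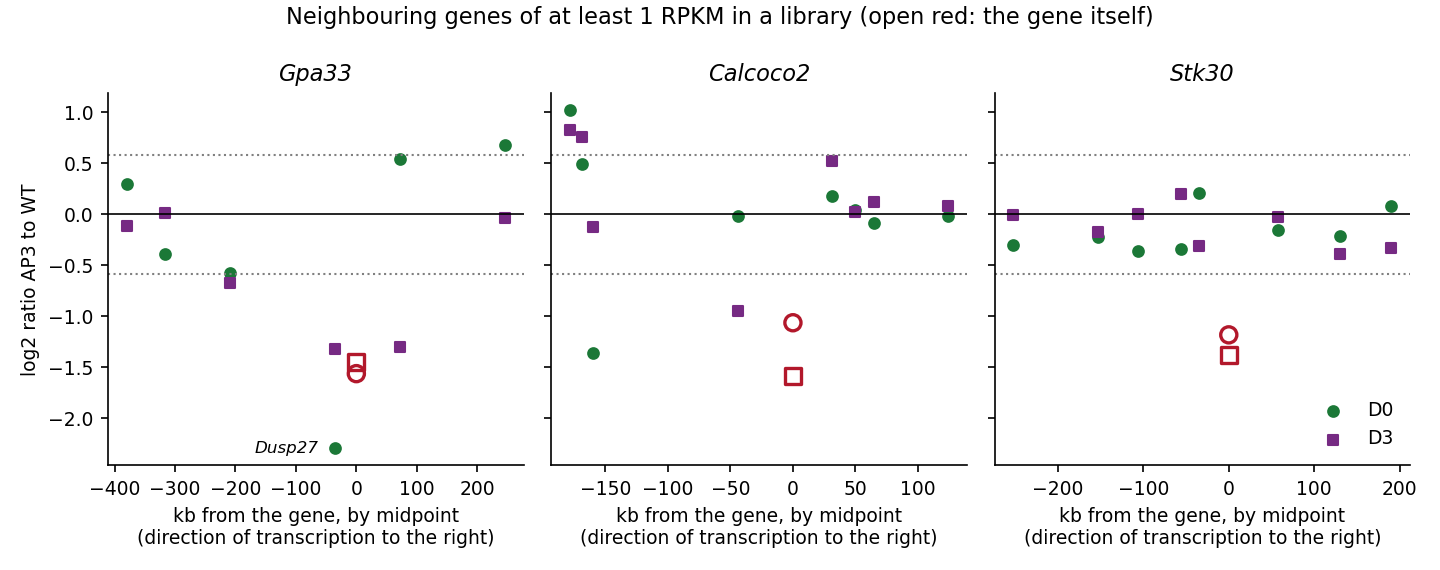
Log2 ratio of AP3 to WT (vertical axis) of neighbouring entries with at least 1 RPKM in a library, by the distance in kb of their midpoint from that of the gene (horizontal axis), at D0 (circles) and D3 (squares); open red symbols are the gene itself and dotted lines mark 1.5-fold. *Dusp27*, at -2.30 and -1.32, lies beside *Gpa33*, while the neighbours of *Stk30* lie between -0.39 and 0.21.

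The pattern over the 6 libraries was compared by Pearson's r of log2(RPKM + 1), among entries with a mean of at least 5 RPKM and a highest library of at least 2 times the lowest. *Calcoco2* and *Stk30* were alike (r = 0.94), and *Gpa33* was less like *Calcoco2* (r = 0.58) and *Stk30* (r = 0.65). Genes chosen for the same decrease share it by construction, and 6 libraries of 1 each leave these values as descriptions. The lists of similar genes that follow depend on the settings: with a floor of 1 RPKM, 0 of the 5 named for *Gpa33* remained, with 2 of 5 for *Calcoco2* and 3 of 5 for *Stk30*, and leaving out 1 library kept as few as 1 of 5 for each gene. The genes most like *Gpa33* were *Brpf3* (0.94), which encodes a subunit of histone acetyltransferase complexes, *Alpl* (0.94), the tissue-nonspecific alkaline phosphatase that marks ESCs, *Akr1e1* (0.92), *Cpsf4l* (0.91) and *Rsph1* (0.89), a radial spoke component of motile cilia. In WT, KD and AP3 ESCs *Alpl* read 49.7, 35.3 and 30.1 RPKM, and in the EBs 61.9, 42.9 and 31.2 RPKM. Those most like *Calcoco2* were *Gm10416* (0.98), *Stk30*, *Irs2* (0.92), an insulin receptor substrate, *Ntpcr* (0.92) and *Jam2* (0.90). Those most like *Stk30* were *Gm10416* (0.98), *Gm10324* (0.95), *Calcoco2*, *Klf2* (0.94) and *Irs2* (0.91). *Gm10416*, at the head of both lists, read 11.2, 9.11 and 6.50 RPKM in ESCs and 8.46, 6.07 and 4.40 RPKM in EBs, in the same order of lines.

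Of 11 CTX family genes found, the relatives of *Gpa33*, 7 had at least 1 RPKM in AP3 or WT at each day. At D0, 1 was lower past 1.5-fold (*Vsig2*, -0.72) and none was higher, with a median of 0.09 beside 0.00 over all entries of that level. At D3, *Jam2*, a junctional adhesion molecule, was lower (-0.82), while *Esam* (0.89), an endothelial adhesion molecule, and *9030425E11Rik* (0.60) were higher. The *Jam2* values were 21.8, 21.0 and 17.2 RPKM in WT, KD and AP3 ESCs, then 15.4, 10.6 and 8.67 RPKM in EBs.

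Of 13 intestinal genes found, 8 or 9 were under 1 RPKM in each library, *Fabp2* was listed at 0 in all 6 and *Vil1* stayed under 0.56 RPKM. Others of the list were expressed, with *Epcam*, an epithelial adhesion molecule, at 72.9 to 114 RPKM, *Klf5*, a Kruppel-like factor, at 23.9 to 49.4 RPKM, and *Cdx1*, a homeobox gene of gut, at 2.02 to 3.24 RPKM in ESCs. Of the 5 with at least 1 RPKM at D0, *Klf4* (121 RPKM in WT and 65.9 RPKM in AP3, log2 ratio -0.88) and *Krt20* (1.01 and 0.447 RPKM, -1.17) were lower, and at D3 none of 5 passed in either direction. *Klf4* is a Kruppel-like factor of both pluripotent cells and gut, and *Krt20* a keratin of differentiated gut cells. In the library labelled KD, *Krt20* was lower at D0 (0.121 RPKM, -3.05). At D3, *Muc13*, a transmembrane mucin, was at 4.77 RPKM against 1.02 RPKM in WT, and *Hnf4a*, a nuclear receptor of endoderm, at 3.68 against 1.32 RPKM.

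In AP3, few of the autophagy genes listed with *Calcoco2* passed 1.5-fold. Of the other 9 cargo receptors, all above 1 RPKM, *Bnip3*, a mitophagy receptor, was lower past 1.5-fold at D0 (29.7 RPKM in WT and 17.9 RPKM in AP3, -0.73) and *Optn*, which encodes optineurin, was higher (7.25 and 12.3 RPKM, 0.76). None of the 9 passed at D3 in AP3, and in the library labelled KD *Bnip3* alone passed, higher at D3 (0.71). *Sqstm1*, the p62 receptor, was at 125 and 141 RPKM at D0, and *Tax1bp1*, a paralog of *Calcoco2*, at 51.1 and 48.5 RPKM. The medians of the 9 were -0.08 at D0 and -0.10 at D3, beside 0.00 and -0.01 over all entries.

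None of 5 genes for NDP52 partners passed 1.5-fold in AP3 at either day. *Lgals8*, the galectin that NDP52 binds on damaged vacuoles, was lower in the library labelled KD than in WT, with 3.21 against 5.32 RPKM in ESCs (-0.73) and 2.50 against 4.57 RPKM in EBs (-0.87). Of 27 core autophagy genes, 1 was lower at D0 (*Atg10*, an E2-like enzyme, -1.14) and 1 was higher at D3 (*Gabarapl2*, an LC3 relative, 0.62). The medians of those 27 were -0.05 at D0 and -0.04 at D3. In the library labelled KD, *Gabarapl2* was lower at D0 (-0.81), and *Gabarapl1* (-0.61) and *Map1lc3a* (-0.71), of the same LC3 and GABARAP families, were lower at D3.

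Of 8 MAK and CDKL kinases found, the closest relatives of *Stk30*, 4 had at least 1 RPKM and none passed 1.5-fold in AP3 at either day. *Ick* had 2.53 RPKM in WT and 2.67 RPKM in AP3 ESCs, with 2.32 and 2.57 RPKM in EBs, below the *Stk30* level in each of these libraries on the same per-length scale. Of 6 ERK and related MAP kinases, *Mapk15* was lower at D3 (1.10 and 0.609 RPKM, -0.85), and at D0 it was just under the floor at 0.957 RPKM in WT, 0.432 RPKM in the library labelled KD and 0.455 RPKM in AP3. *Cdkl2* was lower in the library labelled KD at D0 (-0.62). Of 16 intraflagellar transport genes, *Ift74* was lower at D0 (-0.64) and *Ift172* at D3 (-0.68), with medians of -0.15 and -0.21.

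Marker lists of the cell types that the cultures could hold also differed between the libraries. Of 9 pluripotency genes listed, 8 were found, without *Nanog*. Summed over these 8, the level was 1646 to 2261 RPKM and none of them was at 0. The largest part of each sum was *Dppa5a*, at 685 to 1089 RPKM. In AP3, *Sox2* was lower in ESCs (191 RPKM in WT and 110 RPKM, -0.80) and *Tbx3* in EBs (15.4 and 9.98 RPKM, -0.63), while none passed in the library labelled KD, where the median at D3 was -0.32. The sums of 6 early differentiation markers were 43.4, 49.4 and 36.0 RPKM in WT, KD and AP3 at D0, then 109, 136 and 139 RPKM at D3. *Dnmt3b* made up most of each sum. Of these markers, *Otx2*, a transcription factor of the primed epiblast, was lower in AP3 ESCs (4.22 and 1.37 RPKM, -1.62). *Fgf5*, of the same state, was higher in ESCs of the library labelled KD (0.539 and 1.11 RPKM, 1.05). None passed 1.5-fold at D3, where *Dnmt3b* was at 71.2 RPKM in WT and 105 RPKM in AP3 (0.56). There *Otx2* was at -0.35 and *Fgf5* at -0.42 in AP3 against WT, and the median of the 4 above the floor was 0.08.

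Endoderm markers were higher in AP3 ESCs. Summed over 8 of them, the level at D0 was 17.1 RPKM in WT, 21.6 RPKM in the library labelled KD and 48.6 RPKM in AP3, with *Afp* and *Ttr* listed at 0 in WT and AP3. All 5 above the floor were past 1.5-fold, which were *Gata4* (1.90), *Foxa2* (1.75), *Gata6* (1.73), *Sox17* (1.47) and *Dab2* (1.27), and *Gata4* was also higher in the library labelled KD (0.61). At D3 the sums were 78.6, 200 and 105 RPKM. The higher sum in AP3 came from *Dab2* (41.8 RPKM in WT and 70.3 RPKM in AP3), as 1 of 7 was higher, 1 was lower (*Ttr*, -0.71) and the median was -0.23. In the library labelled KD at D3, 6 of 8 were higher, from 0.65 for *Gata6* through *Gata4*, *Dab2*, *Afp* and *Ttr* to 2.70 for *Apoa1*.

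Some fibroblast markers were higher in AP3 ESCs too, with sums over 8 of 35.0, 28.8 and 53.0 RPKM in WT, KD and AP3 at D0. Of 6 above the floor, *Col1a1* (0.66), *Col1a2* (0.80), *Col3a1* (0.94) and *Dcn* (2.93) were past 1.5-fold. The others, *Thy1* (-0.01) and *S100a4* (-0.15), were not higher, and *S100a4* was lower in the library labelled KD (-0.60). At D3 the sums were 13.1, 7.44 and 10.7 RPKM. There *Col1a1* (0.74), *Col1a2* (0.86) and *S100a4* (1.66) were higher in AP3 and *Thy1* was lower (9.19 RPKM in WT and 3.56 RPKM in AP3), and in the library labelled KD *Col1a1*, *Col1a2* and *Thy1* were lower, from -1.13 to -0.73.

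The sums of 5 trophectoderm markers were 7.17, 4.64 and 4.46 RPKM in WT, KD and AP3 at D0 and went to 5.98, 4.95 and 3.72 RPKM at D3. *Krt7*, a simple epithelial keratin, had 4.11, 2.44 and 1.82 RPKM in WT, KD and AP3 ESCs and 3.79, 2.25 and 1.70 RPKM in EBs. Its lines were thus in the same order as those of *Gpa33*, *Calcoco2* and *Stk30* at both days. That order is common, as 63.9% of the 36 entries lower in AP3 at both days had it. The log2 ratio of *Krt7* to WT was -1.18 in AP3 and -0.75 in KD at D0, and -1.15 and -0.75 at D3. *Hand1* was lower at D0 in AP3 (-0.82) and in the library labelled KD (-1.31). The part of any of these cell types in the levels of *Gpa33*, *Calcoco2* and *Stk30* was not tested.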

How the data were processed

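The authors made TruSeq libraries from poly(A) RNA and mapped the single-end reads to mm9 (Bowtie 0.12.7, and TopHat), with up to 2 mismatches and 20 locations. The TopHat version is given as 1.14 in the submitters' processing notes, which differs from the version in the paper's methods. The deposited values are RPKM, computed by the authors with Cufflinks 1.3.0. The log2 ratios in the same table are the authors' own comparisons and were not used, and Cuffdiff results were not used. The table holds 21639 entries with 21376 distinct symbols.

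Ratios were computed as log2((RPKM + 0.001)/(RPKM + 0.001)), and 1.5-fold was the threshold. No p-value was computed: each condition has 1 library, and a fit across the days was not run. Depth was estimated as the number of reads that best makes low values of 7290 genes with 1 annotated transcript whole (GENCODE, NCBIM37); the steps are blurred, so it is approximate. Reads of a gene are RPKM times longest transcript times depth. Intervals are exact Poisson for a level and exact Clopper-Pearson, conditional on the summed reads, for a ratio. The reads carry no molecular identifiers, so PCR copies count as separate reads. The code was tested on simulated data (Python 3, numpy, scipy).

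The genes and gene lists were chosen with earlier results of these data known. Named genes were drawn from the 3 genes, their 5 nearest entries on each side, list genes past 1.5-fold with at least 1 RPKM in 1 of 2 libraries, the 5 most similar entries by Pearson's r, and the entries ranked beside them. List genes named without passing the threshold (*Fabp2*, *Vil1*, *Sqstm1*, *Tax1bp1*, *Ick*, *Epcam*, *Klf5*, *Cdx1*, *Dppa5a* and *Dnmt3b*) were named after their values were seen. Alternatives were pseudocounts of 0.1 and 1, median centring, a floor of 1 RPKM, a 2-fold threshold, entries summed per symbol, Spearman's rho and the median transcript length.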

Additional observations from a re-analysis of the deposited data

Results flagged for a closer look

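The sign of the *Gpa33* difference between ESCs and EBs was not the same in all lines. Its log2 ratio of D3 to D0 was -0.0016 in the library labelled KD, against 0.65 in WT and 0.77 in AP3. The value in KD is within counting error of 0, so its sign carries no direction, and the difference between the lines was not tested.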

How the results depend on the processing

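The log2 ratios of *Gpa33*, *Calcoco2* and *Stk30* kept their direction in each of 81 recomputed values (27 ratios under 3 settings, added pseudocounts of 0.1 and 1 RPKM and centring on the median ratio of the libraries compared). Over these and the values in the text, AP3 against WT ranged from -1.59 to -0.96. With a pseudocount of 1, *Gpa33* at D0 was -1.29, which is nearer 0 by construction. The call changed in 1 of them: *Stk30* in AP3 EBs against ESCs passed 1.5-fold when centred (-0.63 against -0.58). Halving the estimated depth, an alternative chosen after seeing the data, left 24 of 25 intervals without 0, and that of *Calcoco2* in AP3 against KD at D3 then included it (-0.87 to 0.06). The *Calcoco2* intervals of D3 against D0 in WT (-0.63 to -0.04) and AP3 (-1.29 to -0.41) then overlapped. The reads of *Gpa33* over 6 libraries were 2218 by the longest transcript and 1328 by the median one.

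The genes most like *Gpa33* depend on the settings: with a floor of 1 RPKM, where more genes enter, 0 of its 5 remained, and by Spearman's rho 1 did. For *Calcoco2*, 2 of 5 remained under each, and for *Stk30*, 3 of 5 with the lower floor. Leaving out each library in turn, an alternative added after seeing the data, kept 1 to 4 of 5 for *Gpa33* (1 without WT at D0, AP3 at D0 or WT at D3), 1 to 3 for *Calcoco2* (1 without AP3 at D3) and 1 to 4 for *Stk30* (1 without AP3 at D0). The r of *Calcoco2* and *Stk30* then ranged from 0.89 to 0.99, that of *Gpa33* and *Calcoco2* from 0.51 to 0.66, and that of *Gpa33* and *Stk30* from 0.61 to 0.74.

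Counts over all entries turned on scarcely expressed genes. For AP3 at D0, 3018 entries were lower and 2394 higher, at D3 2524 and 2248; for KD, 2317 and 1938 at D0, and 2437 and 2036 at D3. A pseudocount of 0.1 gave 1884 lower for AP3 at D0, 1597 and 1310 at D3, and 1447 and 1113, then 1507 and 1153, for KD. A pseudocount of 1 gave 390 and 645, 369 and 305, 259 and 208, and 263 and 253, in the same order. A floor of 1 RPKM gave 738 and 947, 716 and 503, 561 and 407, and 583 and 444. A 2-fold threshold gave 1873 and 1418, 1501 lower at D3, 1429 and 1269, and 1484 and 1355. No paired analysis was run, and no result comes from a test. A fit that takes the days as repeats of a line could have been made but was not run. Leaving out a library removes a condition, so it was done for the similarity values alone.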
